A study of Mus musculus with 6 samples.

Results

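The unfolded protein response of the endoplasmic reticulum (ER) was followed here through 10 genes: the chaperones and folding factors Hspa5, Hsp90b1, Calr, Pdia4, Sdf2l1 and Dnajb9, the regulators Xbp1 and Atf6, and the degradation factors Herpud1 and Edem1. They were taken by symbol from the 55450 gene identifiers of the count table, each symbol matched 1 identifier, and all 10 passed the filter on low counts, which left 15028 genes. They were measured by polyA RNA-seq of scraped small intestinal epithelium, with 1 library for each mouse. The 3 control mice (482, 483 and 486) carried homozygous floxed alleles of both targeted corepressor genes, Ncor1loxP/loxP among them, and no Cre. The 3 double-knockout mice (423, 476 and 477) carried the same alleles and the Vil1-Cre-ERT2 transgene, a Cre recombinase driven by the villin promoter in intestinal epithelial cells and active only with tamoxifen. Per the labels, mice aged 8 to 9 weeks were injected with tamoxifen at 15 mg per 100 g of body weight on 5 days, were monitored for 20 days and entered metabolic cages on day 21. Control mice had no Cre, so the deletion and the transgene cannot be told apart, and the labels do not give the sex of a mouse or the intestinal section of a library.

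Secretory and membrane proteins fold in the ER, where BiP (Hspa5), an HSP70 chaperone, binds unfolded chains together with DnaJ-type co-chaperones, while lectin chaperones and disulfide isomerases act on glycoproteins and cysteines. When unfolded proteins build up, the sensors IRE1, PERK and ATF6 start the unfolded protein response. IRE1 splices Xbp1 mRNA so that it encodes an active transcription factor, ATF6 is cut in the Golgi to release its own, and both raise chaperone and ER-associated degradation genes. PERK slows translation and induces ATF4. In the intestine, goblet and Paneth cells depend on this response because they secrete heavily, and enterocytes use the ER to assemble chylomicrons. Counts per gene measure neither Xbp1 splicing nor ATF6 cleavage.

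Both transcription factors act through short promoter elements, and the promoter windows of 4 members that hold a full element are printed first, followed by that of Sdf2l1, the member that rose in the knockout. The sequences are from RefSeq on GRCm38.p6, the assembly also called mm10, and run from 250 bases before to 50 bases after an annotated start, 5′ to 3′ on the gene's strand. Capitals mark matches, on either strand, to the ER stress response element ERSE (CCAAT, 9 bases of any kind, CCACG), to ERSE-II (ATTGG, 1 base of any kind, CCACG) or to the C/EBP-ATF element TGATGCAA, none of which overlap each other here.

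Hspa5, chr2:34771840-34772139, plus strand: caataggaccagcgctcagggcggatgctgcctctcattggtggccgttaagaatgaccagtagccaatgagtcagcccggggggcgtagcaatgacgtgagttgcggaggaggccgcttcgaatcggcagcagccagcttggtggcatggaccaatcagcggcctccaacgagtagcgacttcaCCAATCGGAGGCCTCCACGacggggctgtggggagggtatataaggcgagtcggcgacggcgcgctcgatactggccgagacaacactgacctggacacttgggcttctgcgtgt
Hsp90b1, chr10:86705395-86705694, minus strand: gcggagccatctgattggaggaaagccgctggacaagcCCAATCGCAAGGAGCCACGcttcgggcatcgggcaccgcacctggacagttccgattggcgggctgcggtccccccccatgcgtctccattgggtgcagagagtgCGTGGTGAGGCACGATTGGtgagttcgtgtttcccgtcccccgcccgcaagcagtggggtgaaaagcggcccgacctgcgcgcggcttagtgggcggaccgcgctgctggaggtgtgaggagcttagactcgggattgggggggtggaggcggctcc
Calr, chr8:84846882-84847181, minus strand: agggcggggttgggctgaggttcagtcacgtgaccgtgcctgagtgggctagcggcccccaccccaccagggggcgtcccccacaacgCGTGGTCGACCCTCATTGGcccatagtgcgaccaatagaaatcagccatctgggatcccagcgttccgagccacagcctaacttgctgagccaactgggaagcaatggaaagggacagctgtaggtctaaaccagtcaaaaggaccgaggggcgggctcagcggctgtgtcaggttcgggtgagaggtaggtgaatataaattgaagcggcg
Herpud1, chr8:94386179-94386478, plus strand: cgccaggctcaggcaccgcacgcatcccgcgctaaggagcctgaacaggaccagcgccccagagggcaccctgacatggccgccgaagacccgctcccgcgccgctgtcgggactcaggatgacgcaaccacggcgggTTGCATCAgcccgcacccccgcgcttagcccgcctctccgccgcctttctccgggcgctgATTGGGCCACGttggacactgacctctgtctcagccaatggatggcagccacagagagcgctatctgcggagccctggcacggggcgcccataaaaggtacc
Sdf2l1, chr16:17132334-17132633, minus strand: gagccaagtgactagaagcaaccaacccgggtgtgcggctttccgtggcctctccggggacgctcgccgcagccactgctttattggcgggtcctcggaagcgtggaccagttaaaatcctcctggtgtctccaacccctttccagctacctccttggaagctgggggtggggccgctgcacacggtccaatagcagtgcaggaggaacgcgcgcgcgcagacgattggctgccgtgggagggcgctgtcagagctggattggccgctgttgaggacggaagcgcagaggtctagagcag

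Of the 10 members, 9 had a window in the table; Atf6 had none there. Hspa5 held 1 ERSE between 65 and 47 bases before the start. Hsp90b1 held 2 of them, 1 on each strand, and Calr held 1 on the opposite strand. The Herpud1 window held 1 ERSE-II, and TGATGCAA on the opposite strand. ERSE occurred in 39 of the 32851 windows of the table (0.119%), ERSE-II in 12 (0.0365%) and TGATGCAA in 294 (0.895%). No window of a member held the XBP1-type core TGACGTGG, which 0.676% of all windows held, and the windows of Sdf2l1, Pdia4, Dnajb9, Edem1 and Xbp1 held none of the 4 motifs. The Dnajb9 window (chr12:44210019-44210318, minus strand) lies wholly inside the gene span given below (44205559 to 44210326). Bases upstream of that span were therefore not searched for Dnajb9. A match is a description of these letters, not of binding. None of the 4 genes with an exact ERSE or ERSE-II match passed the test between genotypes, and Sdf2l1 did. Elements with a changed letter were not searched, so a window without a match may still hold one.

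In the double knockout 1 of the 10 members rose and 1 fell when the adjusted p had to be under 0.05 (quasi-likelihood F-test of edgeR, with p-values adjusted by Benjamini-Hochberg over all 15028 genes). Of all genes tested, 17.3% rose and 18.3% fell (35.6% in either direction), so with 10 members the counts of 1 and 1 lie within 1 gene of the background. Sdf2l1 was 2.67-fold higher in the knockout, Atf6 was 2.08-fold lower, and the other 8 did not pass. The median log2 fold change was 0.20 over the 10 members and -0.06 over all genes. In 4 members the 3 knockout values lay wholly apart from the 3 control values, 1 higher and 3 lower in the knockout, against 50.3% of all genes (23.9% higher and 26.4% lower). Both calls were kept in each of 16 other settings, which included leaving out each library in turn. In this bulk tissue, fewer cells of a type and less RNA per cell cannot be told apart.

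**Figure D1:**
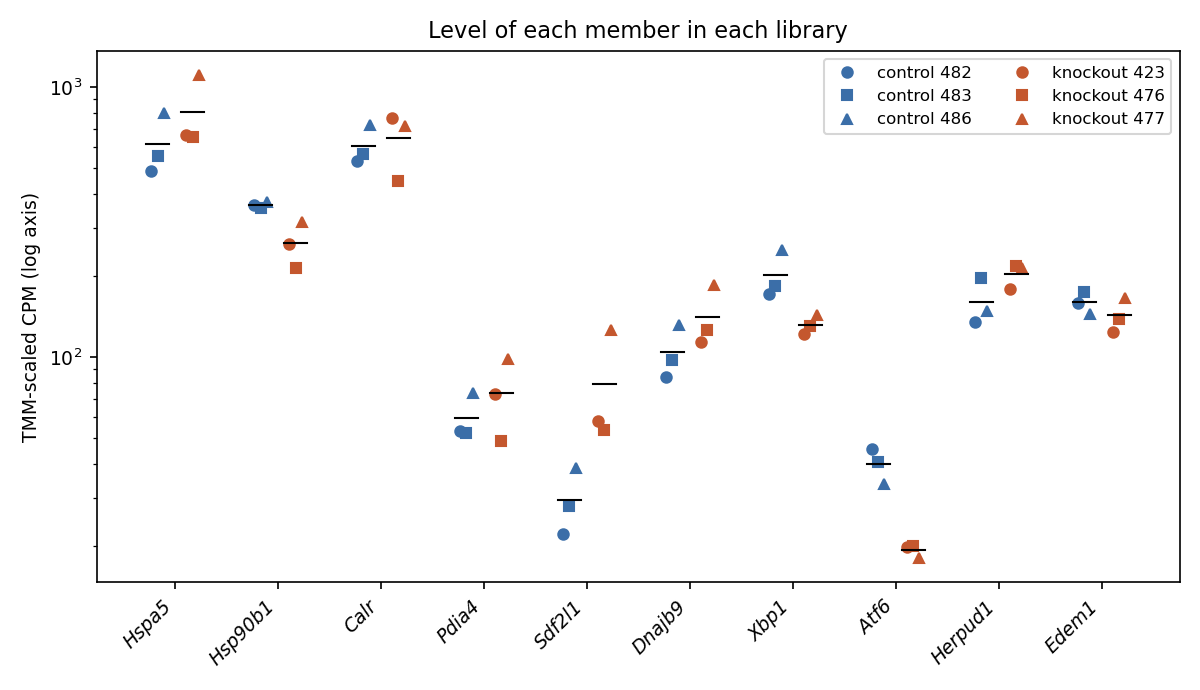
Level of each of the 10 members in each library, as CPM scaled by the trimmed mean of M values (TMM) on a log axis. Blue points are the 3 control libraries, orange points the 3 knockout libraries, and black lines the mean of each genotype. The points of the genotypes are apart for Sdf2l1 (knockout higher) and for Hsp90b1, Xbp1 and Atf6 (knockout lower).

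Total counts ran from 23476031 to 46835165 per library, and a floor of 3 counts stood at 0.0585 to 0.172 CPM, far under every member (floors cover counting error only). Values per library are listed below for controls 482, 483 and 486 and then for knockouts 423, 476 and 477, in that order. The deletion check, Ncor1, measured 140, 137 and 99.3 CPM across the controls, against 31.3, 36.3 and 22.5 CPM across the knockouts. A control library gave 12.8% to 15.9% of its counts to its 20 top genes, and a knockout library 22.3% to 29.1%. With library-size scaling alone the median of all genes moved by -0.44, which touches every fold change given here. Across genes, log2 fold change and exon length had a Spearman rho of -0.37 (genes are not independent replicates). For the tissue check, 10 of 10 epithelial markers were tested, none had a library without a count, and their summed level was 23135 to 36675 CPM in controls and 56244 to 106525 CPM in knockouts. Fabp2, a fatty acid binding protein gene of enterocytes, took 8004 to 17257 CPM of these sums in controls and 39673 to 86029 CPM in knockouts and was the marker that rose (log2 fold change 2.20). Vil1, whose promoter drives the Cre, was the marker that fell (2.29-fold lower, adjusted p = 0.011). Epcam was lower with no overlap but did not pass (-0.62, adjusted p = 0.070). Krt18 (0.78, adjusted p = 0.054) and Lgals4 (0.81, adjusted p = 0.073) were higher with no overlap and did not pass either. The median of the 10 was 0.16. The part of these shifts in the members' values was not tested.

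Hspa5 encodes BiP, the HSP70 chaperone that binds unfolded chains and holds the sensors inactive. The gene (ENSMUSG00000026864, mm10 chromosome 2, 34771970 to 34777547) measured 488, 553 and 799 CPM across the controls, against 663, 649.6 and 1107 CPM across the knockouts. Control 486 was above knockouts 423 and 476, so the genotypes overlapped. Their log2 fold change was 0.40 (SE 0.30, adjusted p = 0.32), with an unadjusted 95% interval from -0.27 to 1.06, that is, from 0.828-fold to 2.09-fold. With library-size scaling the value was -0.065.

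Hsp90b1 encodes GRP94, the HSP90 of the ER, which folds integrins and Toll-like receptors among others. It lies on chromosome 10 (ENSMUSG00000020048, 86690209 to 86705509) and measured 366, 355 and 374 CPM across the controls, against 261, 213 and 317 CPM across the knockouts. All knockout libraries were below all controls, and the controls were within 1.05-fold of each other. The log2 fold change was -0.47 (SE 0.22, adjusted p = 0.12; 95% interval -0.97 to 0.03), and of the 16 alternatives it passed with library-size scaling alone (-0.92, adjusted p = 0.0066, against 0.095 to 0.38 in the others). Its exons share 415 bases with the antisense pseudogene 1810014B01Rik, which stood at 0.919 to 3.59 CPM.

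Calr encodes calreticulin, the soluble lectin chaperone and calcium store of the ER (ENSMUSG00000003814, chromosome 8, 84841850 to 84846934). It measured 529, 562 and 724 CPM across the controls, against 769, 449.5 and 719 CPM across the knockouts. The lowest and the highest of the 6 values were both knockouts. Between genotypes it differed by 0.09 on the log2 scale (SE 0.27, adjusted p = 0.81), and its 95% interval ran from 0.702-fold to 1.62-fold.

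Pdia4, a protein disulfide isomerase also called ERp72 (ENSMUSG00000025823, chromosome 6, 47796141 to 47813430), measured 53.0, 52.4 and 73.4 CPM across the controls. The knockouts measured 73.2, 48.8 and 98.1 CPM. Knockout 476 was below all controls and knockout 477 above them, a 2.01-fold range within the genotype. The log2 fold change was 0.30 (SE 0.27, adjusted p = 0.42), 0.04 without knockout 477 and 0.54 without knockout 476. No setting tried made Pdia4 pass.

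Sdf2l1 was the member that rose. Its product binds BiP together with a DnaJ co-chaperone and keeps unfolded chains from aggregating. The gene (ENSMUSG00000022769, chromosome 16, 17130138 to 17132383) measured 22.0, 28.1 and 38.7 CPM across the controls, against 58.1, 53.4 and 125.9 CPM across the knockouts. Every knockout was above every control, and knockout 477 was 2.36-fold above knockout 476. The log2 fold change was 1.42 (SE 0.35, adjusted p = 0.014; 95% interval 0.63 to 2.20). It was 0.92 without knockout 477 (adjusted p = 0.040), 0.94 with library-size scaling (0.032) and 1.11 with exon length and GC content corrected for (0.025). Over all 16 alternatives the adjusted p ran from 1.1e-06 to 0.045. Its exons span 1108 bases, the shortest of the 10 members.

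Dnajb9 encodes ERdj4, a DnaJ co-chaperone of BiP and a known XBP1 target (ENSMUSG00000014905, chromosome 12, 44205559 to 44210326). It measured 84.2, 97.8 and 131.7 CPM across the controls, against 113, 126 and 184 CPM across the knockouts. Only knockout 477 was above every control. Between genotypes the log2 fold change was 0.43 (SE 0.26, adjusted p = 0.21; 95% interval 0.905-fold to 2.01-fold), and 0.18 with the length and GC correction.

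Xbp1, the transcription factor whose mRNA is spliced by IRE1, was below the lowest control in all 3 knockouts, but missed the threshold. The gene (ENSMUSG00000020484, chromosome 11, 5520659 to 5525893) measured 172, 184 and 249 CPM across the controls, against 121, 129.9 and 142 CPM across the knockouts. The log2 fold change was -0.62 (SE 0.22, adjusted p = 0.051), and its unadjusted 95% interval ran from -1.11 to -0.13. It passed with DESeq2 (-0.59, adjusted p = 0.037), with a stricter filter, a mean of 1 CPM or more (-0.61, 0.048) and with library-size scaling (-1.06, 0.0034). With 1 library left out the values were -0.73 to -0.44, and none of these passed. Over all 16 alternatives its adjusted p ran from 0.0034 to 0.15.

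Atf6 encodes the ER membrane sensor that becomes a transcription factor after cleavage, and it was the member that fell. The gene (ENSMUSG00000026663, chromosome 1, 170704674 to 170867771) measured 45.4, 40.9 and 33.9 CPM across the controls, against 19.8, 20.0 and 18.0 CPM across the knockouts. The knockouts lay within 1.11-fold of each other and all below the lowest control. The log2 fold change was -1.06 (SE 0.19, adjusted p = 0.0035; 95% interval -1.49 to -0.63). Atf6 had the longest exon length of the members, 9231 bases, and the length and GC correction brought its log2 fold change to -0.70 (adjusted p = 0.0081). Without one library at a time it ran from -1.16 to -0.96, and over all 16 alternatives the adjusted p ran from 5.2e-05 to 0.020.

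Herpud1 and Edem1 act in ER-associated degradation, which returns misfolded proteins to the cytosol: HERP (Herpud1) anchors the ubiquitin ligase complex, and EDEM1 marks glycoproteins by trimming mannose. Herpud1 (ENSMUSG00000031770, chromosome 8, 94386438 to 94395377) measured 135, 196 and 148 CPM across the controls, against 179, 217 and 214 CPM across the knockouts. Control 483 lay above knockout 423, and the log2 fold change was 0.35 (SE 0.22, adjusted p = 0.24). Edem1 (ENSMUSG00000030104, chromosome 6, 108828641 to 108859356) measured 158, 175 and 145 CPM across the controls, against 124, 138 and 166 CPM across the knockouts. Its genotypes overlapped, at -0.16 on the log2 scale (SE 0.20, adjusted p = 0.57; 95% interval 0.652-fold to 1.23-fold). It passed with library-size scaling alone (-0.62, adjusted p = 0.026).

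**Figure D2:**
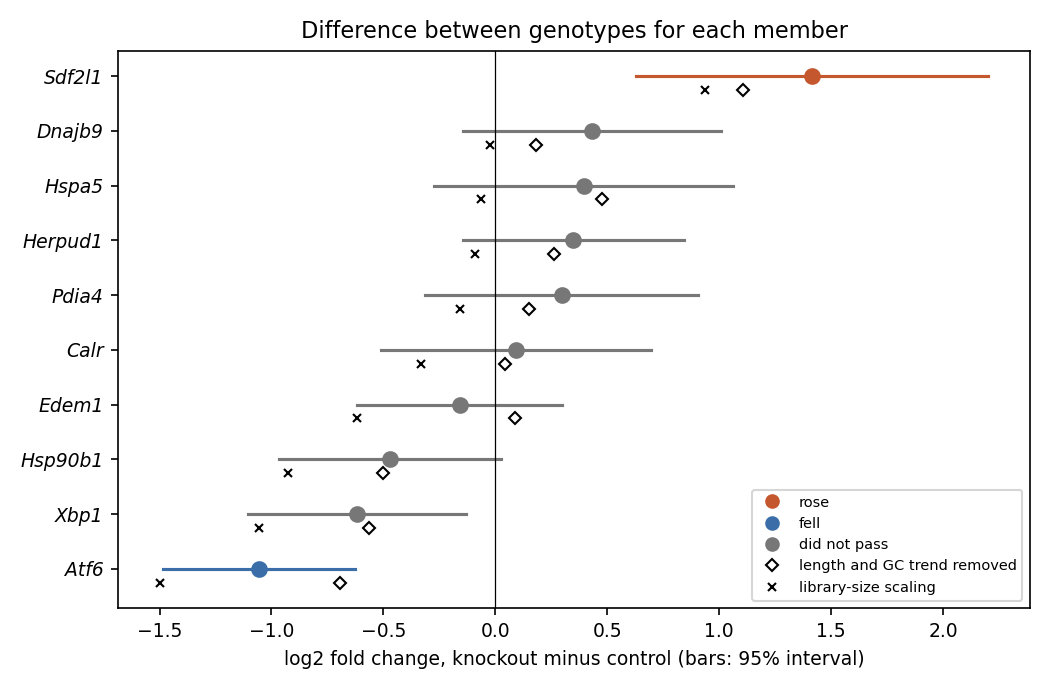
Log2 fold change, knockout minus control, of each member with its unadjusted 95% interval (circles and bars; orange rose, blue fell, grey did not pass). Below each circle, diamonds give the value with the length and GC correction and crosses the value with library-size scaling. Sdf2l1 at 1.42 and Atf6 at -1.06 are the ends of the range, and library-size scaling lies lower than TMM in all 10 genes.

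Relative to their exon length, the members spanned a wide range of levels. In controls Calr (210 ± 36.3 CPM per kb, SD, n = 3) and Hspa5 (145 ± 38.7) were the most abundant, and their libraries overlapped. Hsp90b1 followed at 90.5 ± 2.29 CPM per kb, apart from Hspa5 above and from Herpud1 (68.4 ± 13.7) below. Herpud1 and Xbp1 (62.0 ± 12.8) overlapped, and Dnajb9 came next at 41.0 ± 9.59, overlapping Sdf2l1. Sdf2l1 (26.7 ± 7.59), Pdia4 (24.9 ± 4.99) and Edem1 (24.7 ± 2.32) overlapped each other in turn, and Atf6 was lowest at 4.34 ± 0.628 CPM per kb, apart from all others. In knockouts Calr, Hspa5, Dnajb9, Pdia4, Edem1 and Atf6 kept their rank. Sdf2l1 moved from rank 7 to rank 4 at 71.4 ± 36.6 CPM per kb, and Herpud1 from rank 4 to rank 3 (87.2 ± 9.03). Hsp90b1 moved from rank 3 to rank 5 (65.4 ± 12.9) and Xbp1 from rank 5 to rank 7 (40.4 ± 3.29). Neighbours in the knockouts overlapped at ranks 1 and 2, from rank 3 to rank 6, and from rank 7 to rank 9.

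The members varied between mice of one genotype as well as between genotypes. Among controls, mouse 486 had the highest value in 7 of 10 members (Hspa5, Hsp90b1, Calr, Pdia4, Sdf2l1, Dnajb9 and Xbp1). Among knockouts, mouse 477 had the highest value in 7 of 10, and 6 members were highest in both 486 and 477. Of all tested genes, 38.5% were highest in 486 among controls, 31.6% in 477 among knockouts and 18.2% in both. Library 477 also had the highest summed level of 5 erythrocyte markers, 542 CPM against 35.5 and 128 CPM in the other knockouts and 7.94 to 22.2 CPM in controls. All 5 of these markers rose in the knockout (100.0%, beside 17.3% of all genes), at log2 fold changes of 3.53 to 4.41. The part of blood RNA in the members' levels was not tested.

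**Figure D3:**
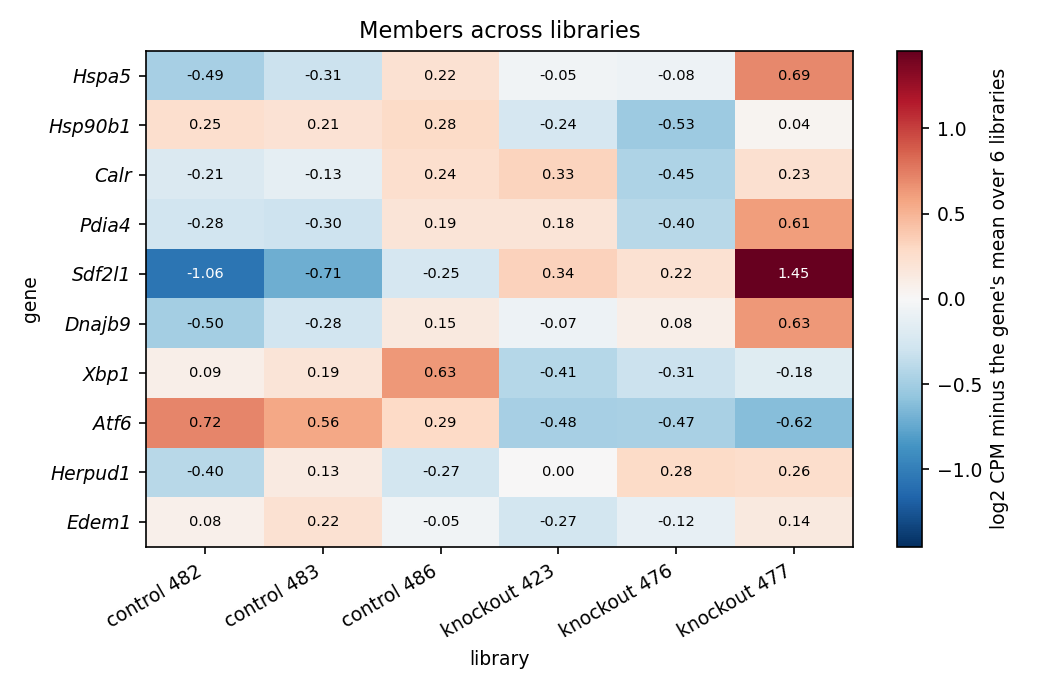
Log2 CPM of each member in each library minus its mean over the 6 libraries, with the number written in each cell. Red cells are above the gene's mean and blue cells below. The column of knockout 477 reads 1.45 for Sdf2l1 and 0.69 for Hspa5, whereas Atf6 and Xbp1 are above their mean in all controls and below it in all knockouts.

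The profile nearest to that of Hspa5 was sought by the root mean square difference of log2 CPM over the 6 libraries, each gene centred on its own mean, among the 7363 other genes whose mean reached 10 CPM. Dnajb9, the BiP co-chaperone gene, came at rank 4, at 0.078. The others of the 5 nearest were Cldn12 (0.056), a claudin gene, Mpc1 (0.063), a subunit of the mitochondrial pyruvate carrier, Atg4a (0.075), an autophagy protease gene, and Cox6a1 (0.084), a subunit of cytochrome c oxidase. None of these 5 passed the test between genotypes. Pdia4 was the next member, at 0.19 and rank 210, whereas Hsp90b1 (0.50) ranked 3332 and Xbp1 (0.53) ranked 3745. Calr, Herpud1 and Edem1 ranked 1271, 1705 and 2365. Of the members called, Sdf2l1 (0.50) ranked 3411, and Atf6 (0.84) was the farthest member at rank 6139.

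Other genes of the pathway were described from 7 lists by role, 114 genes of which 112 were tested. Of these 26 rose, 11 fell and 75 did not pass (23.2% and 9.82%, beside 17.3% and 18.3% of all genes), at a median log2 fold change of 0.18. The count that rose was 15 without control 483, 16 without knockout 477 and 14 with library-size scaling. The count that fell was 7 without knockout 477 and 28 with library-size scaling.

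Among 12 sensors and transcription factors 2 rose (16.7%), 2 fell (16.7%) and 8 did not pass, beside 17.3% and 18.3% of all genes. Creb3l3, an ER-bound factor of liver and gut related to ATF6, averaged 858 ± 57.1 CPM in controls and 1572 ± 305 CPM in knockouts (SD over 3 mice each; log2 fold change 0.87), and Atf4, the effector of the PERK branch, went from 156 ± 21.1 to 279 ± 65.6 CPM (0.84). Creb3l2, another ER-bound factor of secretory cells, fell by 1.46 on the log2 scale, and Ern2, the IRE1 form of goblet cells, by 1.54. The sensor genes Ern1 (IRE1) and Eif2ak3 (PERK) had log2 fold changes of -0.28 and -0.37 and did not pass. Without control 482, knockout 476 or knockout 477 none of these factors rose in edgeR (2 or 3 at an unadjusted p under 0.05), and 1 rose without control 483. DESeq2 gave 4 that rose. Only 1 fell without control 482, knockout 423 or knockout 477, or with limma-voom. With library-size scaling none rose in edgeR (0 at an unadjusted p under 0.05) and 5 fell.

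Of 14 co-chaperones and BiP cofactors only Dnajc10, a disulfide reductase with a DnaJ domain, rose (log2 fold change 0.75, adjusted p = 0.016), and 13 did not pass. The share that rose was 7.14%, beside 17.3% of all genes. The share that fell was 0.0% (0 lower at an unadjusted p under 0.05), beside 18.3% of all genes. None of the 14 rose in edgeR without control 482, control 483 or knockout 477 (1 at an unadjusted p under 0.05 each time, Dnajc10, at an adjusted p of 0.051 to 0.065), and 5 rose without control 486. With library-size scaling none rose (0 at an unadjusted p under 0.05) and 2 fell in edgeR. Manf, a secreted ER stress factor, went from 112 ± 32.8 to 176 ± 54.1 CPM (adjusted p = 0.11), and Dnajc3 from 112 ± 4.93 to 123 ± 22.4 CPM (0.62). Hyou1, the large HSP70 that exchanges BiP's nucleotide, had a log2 fold change of -0.02.

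Of 16 oxidative folding genes 4 rose, 1 fell and 11 did not pass, beside 17.3% of all genes that rose and 18.3% that fell. The count that rose was 3 with library-size scaling, without control 483 or without knockout 477, and 6 without knockout 476. The count that fell was 2 with library-size scaling or with the filter at a mean of 1 CPM. P4hb, which encodes protein disulfide isomerase and the small subunit of the microsomal triglyceride transfer protein, went from 4384 ± 1292 to 11856 ± 2856 CPM (log2 fold change 1.44). The ER oxidase gene Ero1l (now Ero1a), which reoxidises disulfide isomerases, went from 45.3 ± 4.11 to 237 ± 69.6 CPM (2.39), and its paralog Ero1lb fell from 19.8 ± 4.52 to 7.74 ± 2.56 CPM (-1.36). The sulfhydryl oxidase gene Qsox1 rose by 1.04 and Selenof, a selenoprotein of the ER, by 1.23. Pdia3, the isomerase that works with calreticulin, stood at 466 ± 74.9 and 541 ± 88.7 CPM (adjusted p = 0.50).

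Of 14 tested genes of the calnexin cycle and N-glycan processing 2 rose and 2 fell (14.3% each way, beside 17.3% and 18.3% of all genes). Both that rose, Krtcap2 (log2 fold change 1.56) and Ostc (1.29), encode small subunits of the oligosaccharyltransferase. Lman1, a cargo receptor for ER exit, fell by 0.82 (-0.52 and adjusted p = 0.066 with the length and GC correction), and Ganab, the glucosidase II catalytic subunit, fell by 0.59. Canx, the membrane-bound partner of calreticulin, stood at 373 ± 35.8 and 250.2 ± 46.3 CPM (adjusted p = 0.072), with no overlap. Without control 483 or knockout 477 the count that rose was 1, and the count that fell was 1 when any library but control 486 was left out. It was also 1 with the size factors of DESeq2, with upper-quartile scaling and with no filter, and it was 5 with library-size scaling. With the length and GC correction none fell in edgeR (2 lower at an unadjusted p under 0.05, and 2 that fell with DESeq2 on the uncorrected counts), so neither Lman1 nor Ganab kept its call there.

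In ER-associated degradation 3 of 23 genes rose (13.0%), 5 fell (21.7%) and 15 did not pass, beside 17.3% and 18.3% of all genes. The 3 that rose were the ATPase gene Vcp (log2 fold change 0.61) and those of its cofactors Ufd1 (0.83) and Nploc4 (0.71). Those that fell encode the ubiquitin ligases March6 (-1.54) and Syvn1 (-0.85), the lectin Os9 (-0.90), and the mannosidases Edem3 (-0.89) and Man1b1 (-0.73). March6 averaged 249 ± 40.3 CPM in controls and 85.7 ± 2.42 CPM in knockouts (adjusted p = 0.00088). Sel1l, the partner of Syvn1, stood at 145 ± 26.8 and 94.9 ± 19.4 CPM (adjusted p = 0.069). Without knockout 477, 3 fell, without control 483, 1 rose, and with library-size scaling none rose in edgeR (0 at an unadjusted p under 0.05) and 9 fell.

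Of 21 tested genes of the translocon, signal peptidase and ER exit 8 rose and none fell in edgeR (1 lower at an unadjusted p under 0.05, and 9 that rose and 0 that fell with DESeq2). The share that rose was 38.1%, beside 17.3% of all genes that rose and 18.3% that fell. Kdelr3, a receptor that returns KDEL-tagged chaperones to the ER, went from 10.5 ± 1.55 to 61.1 ± 22.0 CPM (log2 fold change 2.53), whereas Kdelr1 (-0.36) and Kdelr2 (0.18) did not pass. The translocon subunit gene Sec61g (1.97) and the translocon-associated genes Ssr4 (1.58) and Ssr3 (0.96) rose, and Sec31a, a COPII coat gene, did not pass (-0.50). The count was 4 without control 482, control 483, knockout 423 or knockout 477, and also with library-size scaling, where 4 fell; 1 fell without control 486. The PERK and ATF4 targets had 6 that rose and 1 that fell of 12, beside 17.3% and 18.3% of all genes. DESeq2 gave the same counts. The count that rose was 5 with library-size scaling and 5 to 7 with 1 library left out, and 1 fell each time. Asns stood at 7.41 ± 1.12 and 43.6 ± 3.72 CPM. Chac1 rose by 5.51 and Psat1 by 3.10, from control levels of 0.527 ± 0.347 and 2.66 ± 0.553 CPM. Chac1 had 10, 14 and 46 counts in controls 482, 483 and 486, so the size of its change rests on few counts. Trib3 did not pass (0.33), and Atf3 fell by 1.34.

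**Figure D4:**
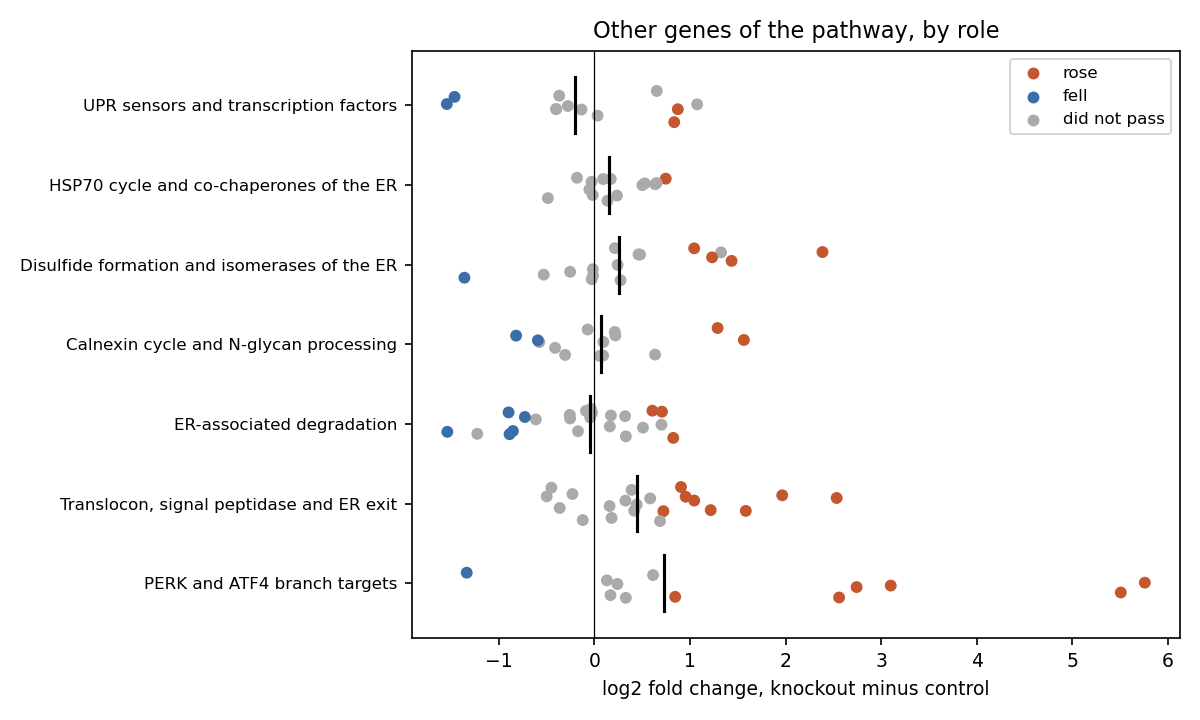
Log2 fold change, knockout minus control, of the tested genes on the 7 lists; each point is a gene (orange rose, blue fell, grey did not pass) and each black line the median of its list. Medians run from -0.21 for the sensors to 0.73 for the PERK and ATF4 targets, and the points of the degradation list lie on both sides of 0.

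Markers of secretory and other cell types moved in these libraries too. Of 8 goblet markers 3 rose and 3 fell (37.5% each way, beside 17.3% and 18.3% of all genes). Their summed level was 8096 to 11677 CPM in controls and 8502 to 8852 CPM in knockouts. Tff3 (log2 fold change 1.15), Agr2 (1.63) and Spink4 (1.67) rose. Muc2 (-1.41), Fcgbp (-1.10) and Clca1 (-1.16) fell, and Zg16 (-0.46) and Spdef (-0.39) did not pass. Exon lengths were 493, 1291 and 477 bases for Tff3, Agr2 and Spink4, and 7127, 10497 and 3777 bases for Muc2, Fcgbp and Clca1. Zg16 and Spdef had 1257 and 2305 bases. The part of exon length in this split was not tested. Of 7 Paneth markers none rose (also with DESeq2 and at an unadjusted p under 0.05 in edgeR) and 5 fell (71.4%). The Paneth sums were 1028 to 4939 CPM in controls and 724 to 1204 CPM in knockouts. The 7 plasma and B cell markers summed to 54.4 to 312 CPM in controls and 4.88 to 106.9 CPM in knockouts, and none of the 4 tested passed in edgeR (0 at an unadjusted p under 0.05, 1 with DESeq2); Jchain made up most of the sum. The 8 leukocyte and stromal markers summed to 44.4 to 108.7 CPM in controls and 41.0 to 46.6 CPM in knockouts, with 1 that fell (Ptprc, -1.78). Of 6 pancreatic acinar markers Prss1 had no count in any library and only Cela1 was tested, which rose by 1.86. The other acinar markers did not reach the filter, and none had a count in knockout 476, where Cela1 had 1150. In knockout 477 their counts ran from 0 to 53. The part of these cell types in the members' values was not tested.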

How the data were processed

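RNA from scraped intestinal epithelium of 6 mice was sequenced as polyA paired-end libraries, per the labels' protocols. The authors deposited raw whole-number counts for each gene. The submitters' processing notes name STAR 2.7.9a, fastp 0.21.0, bcl2fastq, FastQC 0.11.7, DESeq2 1.23.10 and Subread 1.6.2 with featureCounts, and mm10 as the build. Annotation and strand setting are not stated there, so antisense reads cannot be told apart. A further deposited table, of variance-stabilised log2 values, served 1 alternative only.

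GENCODE M21 (mm10) gave symbols, coordinates, exon lengths and GC content, and matched 55190 of 55450 identifiers. The counts were tested with edgeR 4.0.16 under R 4.3.3: filterByExpr, TMM, the robust quasi-likelihood test and Benjamini-Hochberg adjustment over 15028 genes, threshold 0.05. CPM are TMM-scaled, and log2 CPM for profiles used a prior count of 2. The SE is the log2 fold change over the square root of F, and intervals use the t quantile of the test's degrees of freedom. The test was also run on simulated counts, in which libraries differed in total count but not in TMM factor. That run does not cover the scaling shift seen here. Animal numbers are not shared between genotypes, so nothing was paired. The labels treat each library as a separate mouse. No library was a duplicate: every pair of a genotype differed beyond sampling noise, with chi-square at least 71.3 per degree of freedom.

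The members and lists were chosen with earlier results of these data known. Named were the members, Ncor1, and from each pathway list the 2 most abundant genes and the 3 called genes with the smallest adjusted p; from each marker list the 2 most abundant were eligible. Further genes that complete a count of 5 or fewer, and Vil1, Epcam, Krt18, Ern1, Eif2ak3, Hyou1, Kdelr1 and Kdelr2, were named after their values were seen. One targeted gene is not reported here. The alternatives used limma 3.58.1 (voom, and trend on the log2 values), DESeq2 1.42.0, 3 further scalings and 2 further filters, the 20 most abundant genes left out, the length and GC trend removed, and each library left out.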

Additional observations from a re-analysis of the deposited data

How the results depend on the processing

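Over 16 alternatives, Sdf2l1 (log2 fold change 0.92 to 1.66) and Atf6 (-1.50 to -0.70) kept their direction and their calls. The count of members that rose was 1 under every alternative, and the count that fell was 2 with DESeq2 (Xbp1 added), 2 with a mean of at least 1 CPM (Xbp1 added) and 4 with library-size scaling (Hsp90b1, Xbp1 and Edem1 added). Leaving out 1 library gave 1 and 1 each time. Over all genes, library-size scaling gave 1136 that rose and 4553 that fell (20.0% of calls higher, 48.5% with TMM), and leaving out 1 library gave 1510 to 2958 that rose and 1748 to 2982 that fell. Over the 7 pathway lists, library-size scaling gave 14 that rose and 28 that fell, and leaving out 1 library gave 15 to 33 that rose and 7 to 13 that fell. Signs turned with library-size scaling for Hspa5 (-0.065), Calr (-0.33), Pdia4 (-0.16), Dnajb9 (-0.025), Herpud1 (-0.092), Dnajc3 (-0.31), Pdia3 (-0.21), Mcfd2 (-0.24) and Trib3 (-0.15), with the length and GC trend removed for Edem1 (0.088), and without control 482 (-0.00089) or knockout 423 (-0.021) for Calr, whose highest value with 1 library left out was 0.31; none of these values passed. The scaling moves all genes together; the cause of the other turns was not tested. No paired analysis was possible because the genotypes share no animal number. With 3 mice per genotype the 95% intervals were wide (0.828-fold to 2.09-fold for Hspa5), so a member that did not pass is not shown to be unchanged.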

Other observations

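Ratios of raw counts within a library do not depend on the scaling between libraries, but they do not remove the exon-length trend given above. These ratios were chosen after the values were seen and were not tested. Hspa5 over Hsp90b1, the HSP70 and HSP90 chaperones of the ER, which have exon lengths of 4229 and 4032 bases, was 1.33, 1.56 and 2.14 in controls 482, 483 and 486. It was 2.54, 3.05 and 3.49 in knockouts 423, 476 and 477, above every control. Sdf2l1 over Hspa5, a cofactor over its chaperone, was 0.0452, 0.0508 and 0.0484 in the controls and 0.0876, 0.0823 and 0.114 in the knockouts. Their exon lengths are unlike, at 1108 and 4229 bases. Xbp1 over Hspa5 was 0.351, 0.332 and 0.312 in the controls and 0.183, 0.1999 and 0.129 in the knockouts. In all 3 ratios the genotypes were apart, although neither Hspa5, Hsp90b1 nor Xbp1 passed the test alone. Taken singly, 50.3% of all genes had genotypes apart, and the share over other gene pairs was not computed.

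Beyond the members, ERSE or ERSE-II occurred in promoter windows of 45 genes, of which 21 were tested. Of these 5 rose, 5 fell and 11 did not pass (23.8% each way, beside 17.3% and 18.3% of all genes), at a median log2 fold change of -0.18. The pathway genes among them were Canx, Creld2, Derl3, Dnajb11, Dnajc3, Ero1b, Krtcap2, Pdia6 and Syvn1, of which Krtcap2 rose and Ero1b (Ero1lb) and Syvn1 fell. The C/EBP-ATF element TGATGCAA occurred in windows of 279 genes with Herpud1 among them, 81 of them tested, of which 18 rose and 12 fell (22.2% and 14.8%). The core TGACGTGG occurred in windows of 193 genes, 104 of them tested, of which 18 rose and 15 fell (17.3% and 14.4%).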
